A study of Mus musculus with 4 samples.

Results

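Tcf21-type fibroblasts outside the cell cycle are mesenchymal cells of the embryonic mouse ventricle, and they were chosen by their unique molecular identifier (UMI) counts in single-cell RNA sequencing data. Barcodes were kept if they held 1000 to 7000 detected genes and at most 10% mitochondrial UMIs. From these, cells were selected on at least 3 UMIs summed over Tcf21, Pid1, Hpse2 and Lsp1, a sum that also had to be larger than that of the cushion mesenchyme genes Sox9, Lum, Cthrc1 and Papss2. Left out were barcodes with 0.5% or more of their UMIs from the cardiomyocyte genes Tnnt2, Actc1, Tnnc1 and Ttn, with more than 1 UMI of the endothelial genes Pecam1, Cdh5, Emcn and Egfl7 or of the epicardial genes Upk3b, Rspo1, Tm4sf5 and Msln, with 0.3% or more from the arterial wall genes Eln and Fbln5, with any UMI of the macrophage gene Tyrobp, or with more than 1 UMI of the cycling genes Top2a and Mki67. These gates held 1091 of the 35351 barcodes kept (3.09%), or 2.40% of the 45551 barcodes deposited.

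The study compared ventricles of mouse embryos at E14.5 that lack the transcription factor Ets1 in the endothelial lineage with controls, and asked how endothelial Ets1 acts on the growth of the ventricular wall. Control embryos were Tie2Cre; Ets1 fl/+ and Ets1 eKO embryos were Tie2Cre; Ets1 fl/fl, all untreated, on a C57BL/6 background, and labelled as batch 1. Each group had 2 libraries, and each library pooled 3 embryos of unrecorded sex. Both groups carry Tie2Cre and a floxed allele, so control cells in which Cre has acted keep 1 intact copy of Ets1. Tie2Cre is driven by the promoter of an endothelial receptor gene and recombines in endothelium and endocardium, in cells that descend from them, and in many blood cells. The study's text does not name the floxed exons, and a UMI count does not record where in Ets1 the transcript was read, so RNA of a recombined allele is counted together with intact RNA.

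Cardiac fibroblasts make and maintain the collagen scaffold of the ventricle, and most of those in the embryonic ventricular wall descend from the epicardium, while a smaller number come from the endocardium by way of the cushions. Tcf21 is a transcription factor that epicardial precursors need to become fibroblasts. Wt1 and Tbx18 are transcription factors of the epicardium, and mural cells, which wrap small vessels, arise from the same epicardial precursors.

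Control 1 held 12641 barcodes with 124140739 UMIs, of which 9228 barcodes were kept and 304 were Tcf21-type fibroblasts. Control 2 held 7949 barcodes and 76931208 UMIs, with 6241 kept and 206 fibroblasts. eKO 1 held 10010 barcodes and 95131419 UMIs, with 7688 kept and 279 fibroblasts. eKO 2 was the library with the most barcodes and the least depth per cell, with 14951 barcodes, 102872196 UMIs, 12194 kept and 302 fibroblasts. The fibroblasts of these libraries held a median of 7908.5, 8085.5, 7571 and 4996.5 UMIs and of 3065.5, 3165.5, 2843 and 2201 genes, in that order, and together 2550285, 1659044, 2233623 and 1565079 UMIs. Levels are therefore given as counts per 1e6 UMIs of the class (CPM), and lists of 4 values always follow the order control 1, control 2, eKO 1, eKO 2, numbered as the replicates are. Libraries shared 191 barcode sequences, and none of these was a fibroblast in more than 1 library.

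The libraries differed in sex and in hemoglobin before any comparison by genotype. Fibroblasts with UMIs of Xist and none of the Y-linked genes made up 0% of those in control 1, 51.0% in control 2, 29.7% in eKO 1 and 81.5% in eKO 2. Fibroblasts with Y-linked UMIs and no Xist made up 80.9%, 36.9%, 46.6% and 0%. Control 1 was thus male, eKO 2 was female, and the other libraries held both sexes. Hemoglobin and other erythroid RNA was given by 9 genes, of which Hbb-bs had the highest level, and it summed to 1257, 82.0, 207 and 14144 CPM. How far it was concentrated differed by library. The 10 fibroblasts with the most Hbb-bs held 91.0% of its UMIs in control 1, 31.6% in control 2 and 16.7% in eKO 1. In eKO 2 the 10 fibroblasts with the most Hbb-bs held 99.1% of its UMIs, and a single barcode held 2473 of the 2578 UMIs of the embryonic globin gene Hbb-y and 310 of the 324 UMIs of Hba-x.

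The genes used by the gate are a description of how these cells were picked. Tcf21 (ENSMUSG00000045680, chromosome 10, 22817281 to 22820174 in GRCm38, GENCODE vM21) was found in 748 of the 1091 fibroblasts and stood at 216, 209, 163 and 271 CPM. Pid1, which codes for an adaptor protein of insulin signalling, stood at 587, 629, 517 and 414 CPM. Hpse2, which codes for an inactive relative of heparanase that binds heparan sulfate, stood at 258, 205, 283 and 240 CPM, and Lsp1, which codes for an actin-binding protein, at 480, 475, 875 and 534 CPM. Which gene carried a cell over the gate therefore differed by library. Lsp1 gave 31.1%, 31.3%, 47.6% and 36.6% of the 4 genes' UMIs, and Tcf21 gave 14.0%, 13.7%, 8.84% and 18.6%. The median fibroblast held 11, 10, 13 and 6 UMIs of the 4 genes together.

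Cells on both sides of the limit held Col14a1, which the gate did not use, but they were not alike in other genes. With exactly 3 UMIs, just inside, there were 15, 11, 12 and 35 fibroblasts, with Col14a1 at 281, 284, 306 and 311 CPM. With 2 UMIs, just outside, there were 10, 17, 10 and 41 barcodes that met the other gates, with Col14a1 at 180, 92.3, 315 and 280 CPM. eKO 2 had more cells on both sides of the limit than any other library. Other fibroblast genes differed by library at the limit. In cells with exactly 3 UMIs, Dcn, the proteoglycan decorin, stood at 381, 1052, 506 and 1232 CPM, against 1194, 998, 1229 and 1266 CPM in those with 4 or more. The collagen gene Col1a1 stood at 301, 1435, 577 and 1422 CPM, against 1524, 1574, 1836 and 1459.7 CPM. Both were thus far lower just inside the limit in control 1 and eKO 1 and nearly level in control 2 and eKO 2. Pdgfra, the receptor for platelet-derived growth factor A, stood at 30.1, 213, 118 and 122 CPM, against 165, 217, 222 and 164 CPM. With 2 UMIs, just outside, Dcn stood at 257, 636, 594 and 1452 CPM.

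The label was set beside genes that the gate did not use. The cells were chosen with earlier results of these data known, so these levels describe the label and do not test it. Col14a1, a collagen that sits on the surface of fibrils and was among the markers given for these cells, averaged 351 CPM over the libraries (260 to 486), against at most 53.7 CPM in cushion-type mesenchyme, epicardial cells, endothelial barcodes or Tyrobp-positive barcodes. The general fibroblast genes were present as well. Pdgfra stood at 160, 216, 218 and 160 CPM, Dcn at 1162, 1000, 1201 and 1263 CPM, and Col1a1 at 1476, 1568, 1788 and 1456 CPM. None of these separates the fibroblasts from all their neighbours, because Pdgfra averaged 173 CPM in cushion-type mesenchyme and Col1a1 averaged 2468 CPM in epicardial cells. The genes of the epicardial origin stood between the classes. Wt1 averaged 132 CPM in the fibroblasts, 361 CPM in epicardial cells and 5.80 CPM in cushion-type mesenchyme, and Tbx18 averaged 76.4, 222 and 36.2 CPM.

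Genes with the largest ratio to the highest of the other 4 classes, among those with a mean of at least 50 CPM, describe what else these cells carry; those given here are outside the gate and, apart from Slit2, were chosen after their values were seen. Kcnn3, a calcium-activated potassium channel, averaged 91.2 CPM against at most 7.16 CPM in those 4 classes. The axon guidance ligand Slit2 averaged 1542 CPM against 324 CPM, and the growth factor signalling antagonist Spry1 averaged 58.3 CPM against 12.1 CPM. These are levels in cells picked by correlated genes, so the differences between classes carry no test. Cycling Tcf21-type fibroblasts, cardiomyocytes and arterial wall cells were not among the classes compared.

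**Figure D1:**
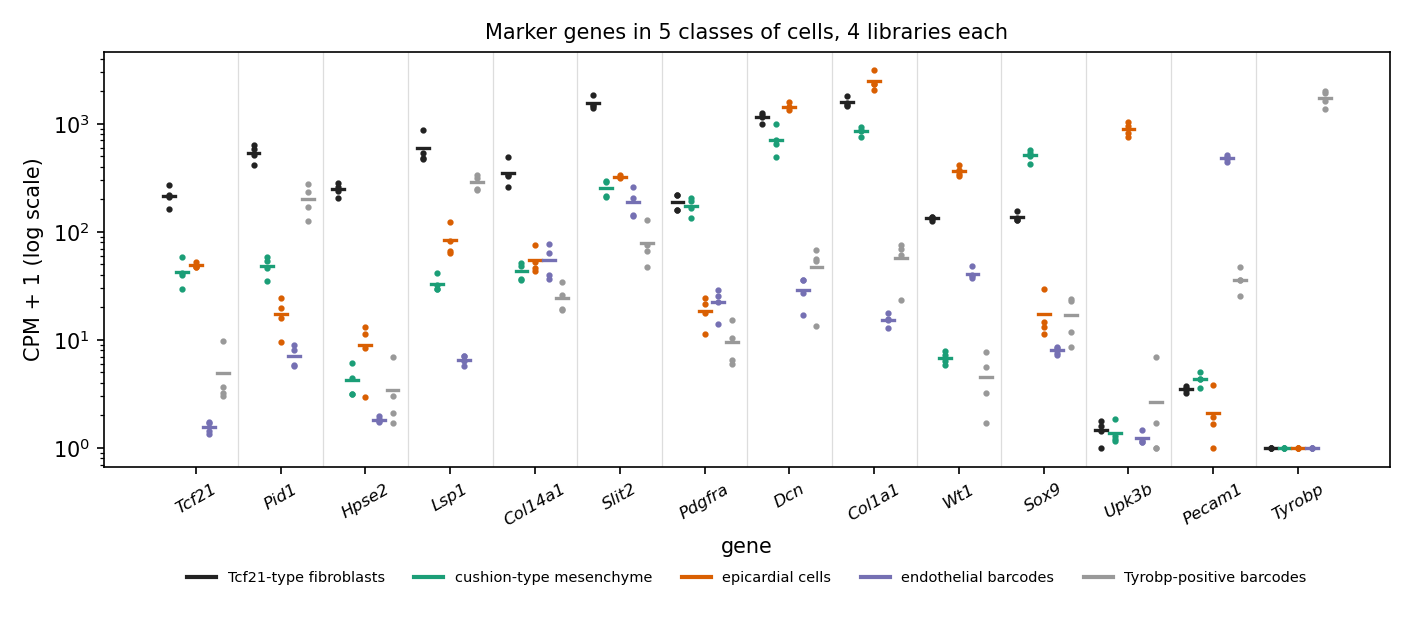
CPM plus 1 on a log scale for 14 genes in Tcf21-type fibroblasts and 4 other classes; dots are the 4 libraries and bars their means. Tcf21, Pid1, Hpse2 and Lsp1 chose the fibroblasts and Sox9, Upk3b, Pecam1 and Tyrobp limited them. Col14a1 and Slit2 were not used and, among the classes shown, had their highest level in the fibroblasts. Cycling Tcf21-type fibroblasts are not shown.

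RNA of other cell types was also read in the fibroblasts. Of 14 endothelial genes, 6 were tested outside the gate, and the whole list summed to 180, 150, 138 and 135 CPM with Tek as its most abundant gene. The 9 macrophage genes summed to 17.6, 14.5, 11.2 and 23.6 CPM, with Pf4 highest and Tyrobp at 0 by the gate. The 11 epicardial genes summed to 8.23, 8.44, 8.51 and 12.8 CPM, with Upk1b, Msln, Krt7 and Lrrn4 at 0 in every library. The 9 cushion genes, 4 of them in the gate, summed to 360.4, 441, 337 and 356 CPM. Apart from the erythroid RNA given above, cardiomyocyte RNA was the largest of the lists of other cell types. Its 15 genes summed to 2017, 1409, 2071 and 2496 CPM, with Tpm1, which fibroblasts also express, as the most abundant. The 5 Schwann and neural crest genes summed to at most 5.42 CPM.

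The fibroblasts were not uniform. With the mural cell genes Kcnj8 and Abcc9, the subunits of a potassium channel of small-vessel mural cells, and Rgs5, a regulator of G protein signalling, 104 of the fibroblasts held at least 3 UMIs and 891 held none; this split was chosen after its values were seen. The 104 cells were 15.5% (95% exact Clopper-Pearson interval 11.6 to 20.0) of the fibroblasts in control 1, 7.28% (4.13 to 11.7) in control 2, 11.1% (7.68 to 15.4) in eKO 1 and 3.64% (1.83 to 6.42) in eKO 2. The groups overlapped, and control 1 was highest. The intervals cover counting error only. Over all libraries, these cells held Pdgfra at 44.3 CPM against 215 CPM in the 891, Dcn at 243 against 1333 CPM, and Wt1 at 19.1 against 156 CPM. They held Pdgfrb at 376 against 79.8 CPM and the mitochondrial proteins Ndufa4l2 at 467 against 39.5 CPM and Cox4i2 at 307 against 24.5 CPM. By these genes, about 1 in 10 cells that pass the gate held more mural cell RNA and less fibroblast RNA than the rest. Of the gate genes, Tcf21 stood at 87.5 against 233 CPM and Lsp1 at 343 against 648 CPM. Hpse2, at 241 against 237 CPM, and Pid1, at 516 against 536 CPM, were nearly level. Col14a1, outside the gate, stood at 193 against 389.5 CPM. The gate genes chose the cells of both sets, so their levels are a description only.

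**Figure D2:**
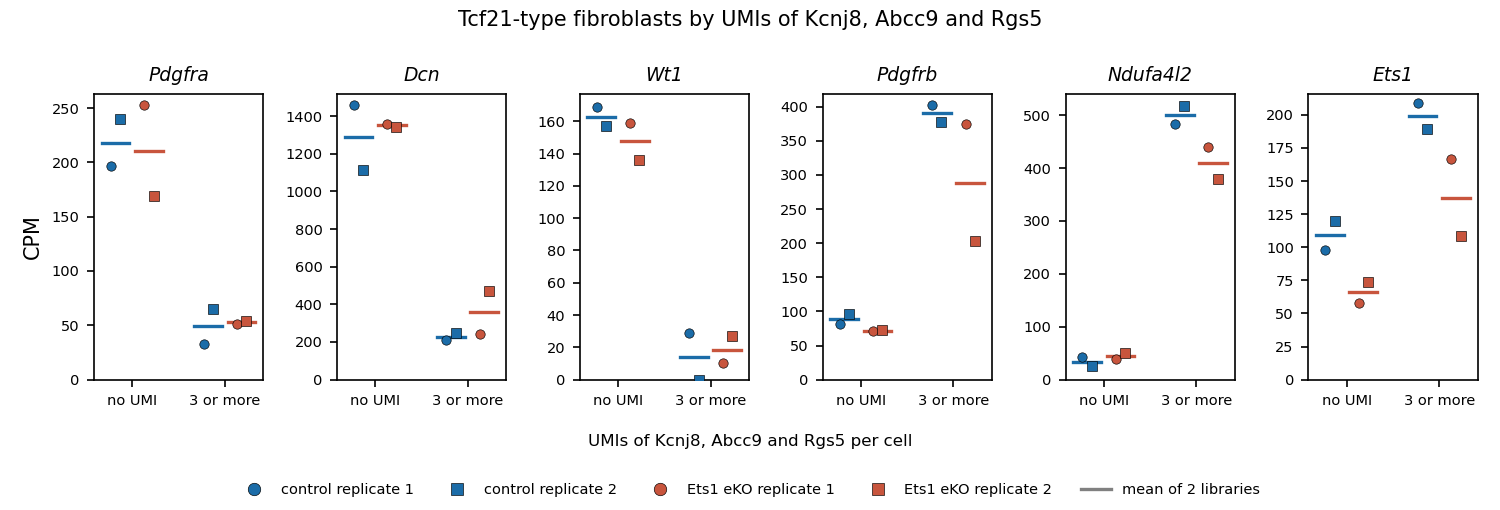
CPM of 6 genes in fibroblasts with no UMI and with 3 or more UMIs of Kcnj8, Abcc9 and Rgs5; points are libraries and bars the means of a group's 2 libraries. In all 4 libraries Pdgfra, Dcn and Wt1 are lower and Pdgfrb, Ndufa4l2 and Ets1 are higher in cells with 3 or more UMIs.

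A smaller set passed the gate through Pid1 alone. It held 39 cells, with 14, 16, 4 and 5 in the libraries, and it was chosen after its values were seen. Dcn stood at 307 CPM over these cells, below the 1009 CPM of all fibroblasts without a UMI of Tcf21, and Apoe, which codes for the lipid carrier apolipoprotein E, stood at 1216 CPM. Both control libraries held more such cells than either Ets1 eKO library. Pid1 was also read in 62.6%, 59.6%, 59.4% and 39.3% of Tyrobp-positive barcodes, and Lsp1 in 70.9%, 68.7%, 74.6% and 62.9%. What kind of cell passed through Pid1 alone was not tested.

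The share of barcodes that were non-cycling Tcf21-type fibroblasts was 3.29% (95% exact interval 2.94 to 3.68) in control 1, 3.30% (2.87 to 3.77) in control 2, 3.63% (3.22 to 4.07) in eKO 1 and 2.48% (2.21 to 2.77) in eKO 2. The controls lay between the Ets1 eKO libraries. The mean of Ets1 eKO minus control was -0.245 percentage points (2-sided exact permutation over libraries, p = 1; with 2 against 2 libraries no p under 0.33 can be had). Without eKO 2 the difference was 0.331 points, so that library, which was also the shallowest, set its sign.

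Cells that met every other gate but held at least 2 UMIs of Top2a and Mki67 were called cycling, and they were 41.0%, 43.7%, 46.4% and 42.5% of the class in the 4 libraries. The groups overlapped, and the difference was 2.12 percentage points (exact permutation p = 0.667). It was 0.747 points without control 1, 3.49 without control 2, 0.133 without eKO 1 and 4.11 without eKO 2, and 0.277 when 1 UMI was enough to be called cycling. Both genes are read less often in shallow cells. With every cell thinned to 3000 UMIs the shares were 28.8%, 32.9%, 34.3% and 32.8%, a difference of 2.74 points in which the groups again overlapped.

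Ets1 (ENSMUSG00000032035, chromosome 9, 32636221 to 32757820), the deleted factor, was read in the fibroblasts at 126, 124, 73.9 and 79.2 CPM. Both Ets1 eKO libraries were lower than both controls. The log2 fold change was -0.61 (SE 0.17, 2 against 2 libraries), and over all genes tested its adjusted p was 0.515 (edgeR, Benjamini-Hochberg), short of the 0.05 threshold used throughout. It stayed between -0.71 and -0.54 and short of the threshold (adjusted p 0.145 to 1) in the 18 alternatives run. Endothelial barcodes, where Tie2Cre is active, stood at 312, 276, 139 and 102 CPM. The difference between the fibroblasts' effect and that of cushion-type mesenchyme (81.4, 72.3, 44.3 and 36.0 CPM) was 0.25 (SE 0.18, adjusted p 0.875 in edgeR with Benjamini-Hochberg adjustment), and between the fibroblasts and epicardial cells (11.3, 21.01, 15.7 and 14.9 CPM) it was -0.67 (SE 0.38, adjusted p 1).

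Depth was evened out for the share of cells with Ets1. With each cell thinned to 2000 UMIs, 21.8% and 25.4% of the control fibroblasts held an Ets1 UMI, and 10.4% and 11.0% of the Ets1 eKO fibroblasts did. In endothelial barcodes the shares were 41.5%, 39.0%, 21.8% and 19.03%. In Tyrobp-positive barcodes they were 5%, 3.03%, 4.12% and 2.82%, with median depths before thinning of 6872.5, 7576, 6666 and 4742 UMIs. Tie2Cre also recombines in many blood cells, so these barcodes are not a neutral background for free RNA, whose part was not tested. The fibroblasts' shares were above those of the Tyrobp-positive barcodes in all 4 libraries, and the fibroblast groups did not overlap. The result was not confined to the cells with mural genes. In the 891 fibroblasts without Kcnj8, Abcc9 and Rgs5, Ets1 stood at 98.0, 119.9, 58.1 and 73.9 CPM, and in the 748 with a UMI of Tcf21 at 118, 117, 67.3 and 77.1 CPM.

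Of the 16 ETS factors, the family to which Ets1 belongs, 15 were tested and none passed in edgeR or DESeq2. At an unadjusted p under 0.05, 2 were below and 0 above, where 452 of all 10598 genes were below and 308 above. In CPM, 1 had both Ets1 eKO libraries above the controls and 6 both below, against 10.4% and 29.6% of all genes. Their median log2 fold change was -0.05 (-0.18 to -0.04 with a library left out), against 0.01 for all genes (-0.02 to 0.04). Besides Ets1 the gene under that p was Fli1 (ENSMUSG00000016087, chromosome 9, 32422204 to 32542861), the neighbour of Ets1 on the chromosome, at 123, 119, 81.9 and 66.5 CPM. It was lower in both Ets1 eKO libraries, with a log2 fold change of -0.59 (SE 0.17, edgeR adjusted p 0.523 after Benjamini-Hochberg). The most abundant member, Etv6, stood at 172, 234, 164 and 153 CPM. Fli1 was chosen after its values were seen.

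**Figure D3:**
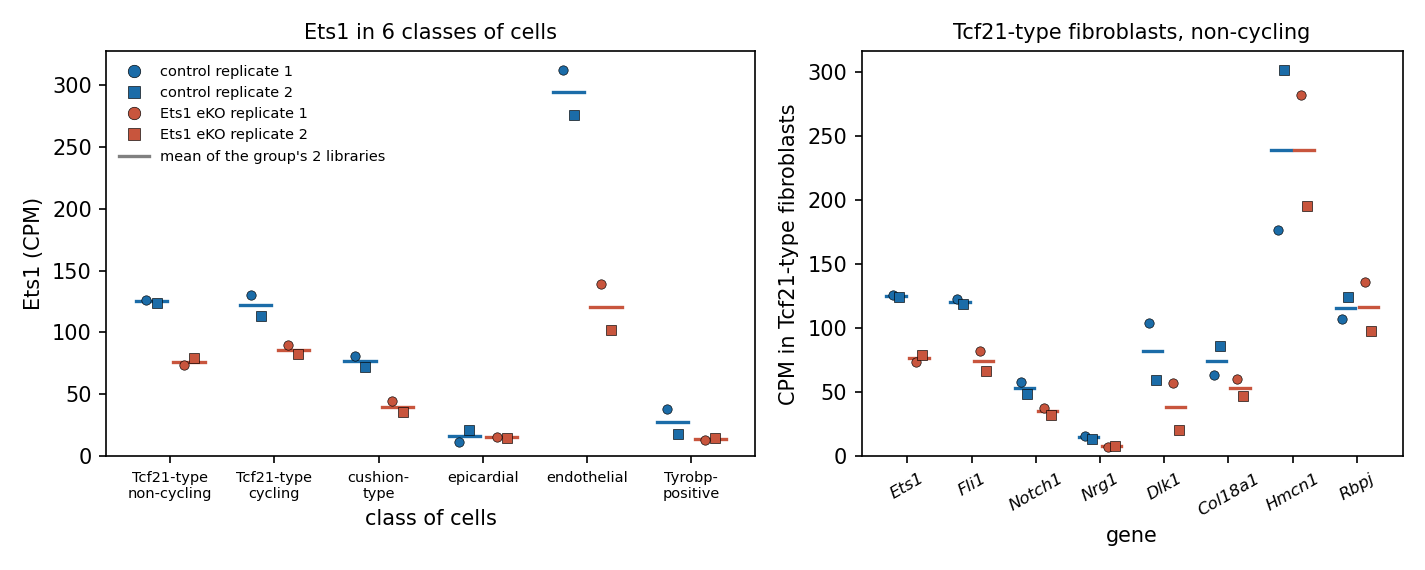
Left, Ets1 in CPM in 6 classes of cells; right, CPM of 8 genes in non-cycling Tcf21-type fibroblasts. Points are libraries and bars the means of a group's 2 libraries; Ets1 lies lower in both Ets1 eKO libraries in the fibroblasts, in cushion-type mesenchyme and in endothelial barcodes, and overlaps in epicardial cells.

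None of the study's own signalling and matrix genes passed the threshold in these cells. The ligand gene Nrg1 (neuregulin, chromosome 8) stood at 16.1, 13.9, 7.16 and 8.31 CPM and the receptor gene Notch1 at 57.6, 48.8, 37.6 and 32.6 CPM. Both were lower in the Ets1 eKO libraries without overlap, with log2 fold changes of -0.87 and -0.50 (for Notch1, -0.63 to -0.31 with a library left out), and neither passed the threshold (edgeR, Benjamini-Hochberg adjusted p 0.638 and 0.667). Dlk1 (fold change -0.95, past the threshold at -1.30 without control 2 and -1.92 without eKO 1, and -0.41 and -0.45 without control 1 and eKO 2), a membrane-bound relative of the Notch ligands, stood at 104, 59.7, 56.9 and 20.4 CPM. Rbpj, the DNA-binding partner of Notch, stood at 107, 124, 136 and 97.8 CPM and Hmcn1, the matrix protein hemicentin, at 177, 301, 282 and 196 CPM, and both overlapped. Slit2 (ENSMUSG00000031558, chromosome 5, 47983138 to 48307733) stood at 1837, 1484, 1461 and 1387 CPM, and the basement membrane collagen gene Col18a1 at 63.1, 86.2, 59.99 and 47.3 CPM. The Slit2 fold change was -0.12 (SE 0.21) and turned positive without control 1, at 0.10, and with sex in the model, at 0.08. Dll4, the endothelial Notch ligand, was at or near 0. With Ets1 they make 9 genes, of which 8 were tested and none passed in edgeR or in DESeq2. Of these, Ets1, Nrg1, Notch1 and Dlk1 were below at an unadjusted p under 0.05 and 0 were above, where 452 of all 10598 genes were below and 308 above, and the median with Ets1 was -0.42.

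Over the whole transcriptome, 10598 genes passed the filter on low counts and 1 of them (0.00944%) passed the threshold in edgeR. At an unadjusted p under 0.05 there were 760 genes, 308 higher and 452 lower in Ets1 eKO. DESeq2 called 3 genes, Apoe and Tagln among them. With the replicate number as a block, edgeR called 27 genes, 5 higher and 22 lower. Leaving out 1 library raised the number of calls each time, to 75 without control 1, 21 without control 2, 89 without eKO 1 and 40 without eKO 2. In these fits the lone library of a group is assumed to vary like the pair in the other group. In CPM, 1106 genes (10.4%) had both Ets1 eKO libraries above both controls and 3137 genes (29.6%) had both below. Scaling by total counts in place of trimmed means moved the all-gene median from 0.01 to -0.09 on the log2 scale. With that scaling, 129 genes were higher and 835 lower at an unadjusted p under 0.05 in edgeR, so the balance of directions depended on the scaling.

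Apoe (ENSMUSG00000002985, chromosome 7, 19696109 to 19699188) was among the genes with the smallest p. It stood at 234, 295, 79.2 and 116 CPM, with both controls above both Ets1 eKO libraries, for a log2 fold change of -1.34 (SE 0.20) that missed the threshold in edgeR (Benjamini-Hochberg adjusted p 0.0524). It passed in 15 of the 18 alternatives (adjusted p 1.86e-08 to 0.385), DESeq2 included and without each library in turn (-1.45, -1.20, -1.08 and -1.63 without control 1, control 2, eKO 1 and eKO 2), and missed it with the study's cell filter, with the gate at 5 UMIs, where the value was -0.99, and among fibroblasts with a UMI of Tcf21. Its UMIs were concentrated, since in each library the 10 fibroblasts with the most held 45.5%, 43.9%, 37.3% and 44.2% of them. The 39 cells that passed the gate through Pid1 alone, 14 and 16 of them in the controls, held 293 of the 1444 Apoe UMIs. In the 748 fibroblasts with a UMI of Tcf21, Apoe stood at 212, 246, 82.3 and 125 CPM, with both controls above both Ets1 eKO libraries. Apoe was far higher in Tyrobp-positive barcodes, at a mean of 10207 CPM, and in endothelial barcodes, at 1461 CPM. In the Tyrobp-positive barcodes, at 9434, 11810, 11088 and 8496 CPM, the groups overlapped, and in the endothelial barcodes, at 1341, 1252, 1534 and 1717 CPM, both Ets1 eKO libraries were higher. How much free RNA from such cells adds to Apoe in the fibroblasts was not tested.

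Another 8 genes with a small p and lower values in Ets1 eKO did not pass (edgeR, Benjamini-Hochberg adjusted p 0.244 to 0.37). March1, a ubiquitin ligase gene, stood at 43.9, 97.0, 21.9 and 17.9 CPM, Nhs at 60.8, 86.2, 32.7 and 26.2 CPM, and Eps8, which codes for a regulator of actin filaments, at 122, 113, 67.6 and 46.6 CPM. Fam110b, Kif26b, Prr16 and Clstn2 had fold changes of -0.87, -1.10, -1.83 and -1.25. In all of these genes the controls lay above the Ets1 eKO libraries. The genes were chosen by direction and smallest p, so this is not separate support. Penk, the enkephalin precursor, was concentrated in few cells, since 1 fibroblast of control 1 held 42 of the 63 UMIs of that library and 0 UMIs were read in eKO 1. March1, with a log2 fold change of -1.66, passed in 8 of the 18 alternatives, the fit with sex as a term among them, and missed without control 2, where the value was -1.05. In the fit with sex, female and male cells of control 2 and of eKO 1 were separate units, so some units shared a library. Leaving out control 1 put March1 (-2.11), Nhs (-1.38), Kif26b (-1.33), Clstn2 (-1.44) and Fam110b (-1.0) past the threshold, and leaving out control 2 did so for Penk (-4.78). Leaving out eKO 1 did so for March1 (-1.82), Nhs (-1.36), Eps8 (-1.22), Clstn2 (-1.51) and Penk (-2.99). Leaving out eKO 2 did so for March1 (-1.54), Nhs (-1.05), Kif26b (-1.14) and Penk. Because eKO 1 held 0 UMIs of Penk, the size of the Penk fold change without eKO 2 is not defined by the counts.

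**Figure D4:**
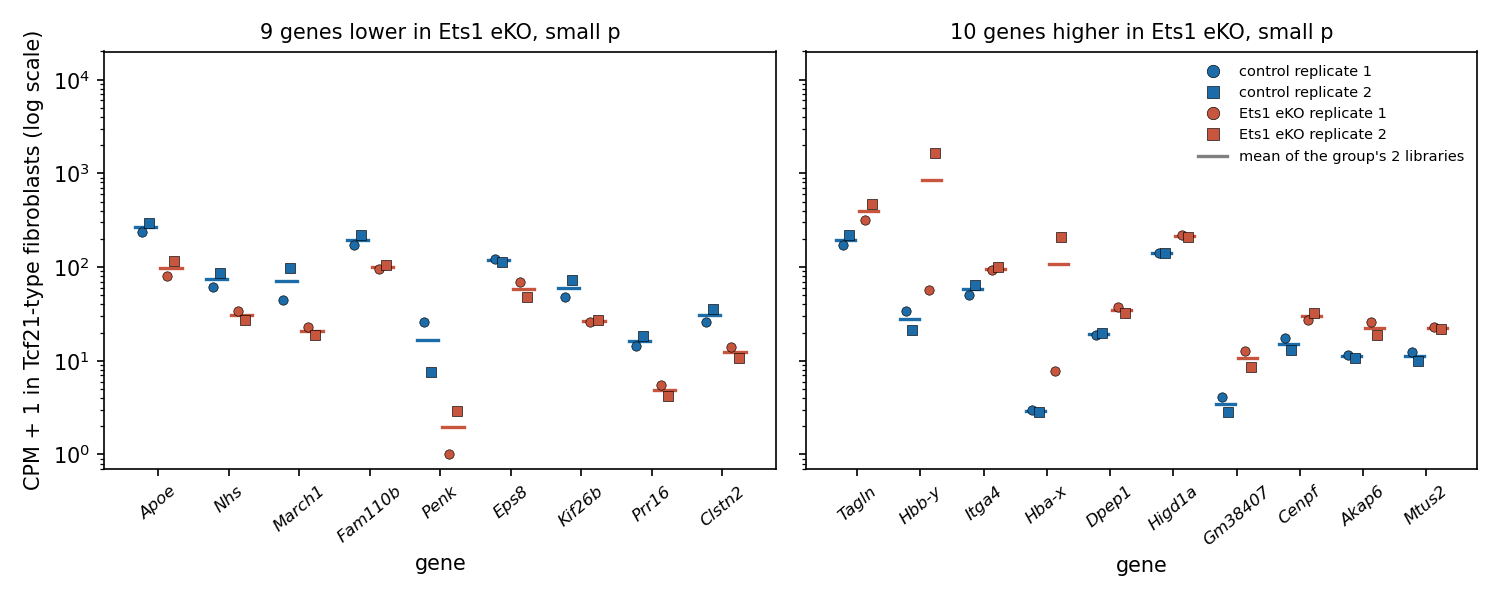
CPM plus 1 on a log scale for 9 genes lower and 10 genes higher in Ets1 eKO with a small p in the fibroblasts; points are libraries and bars the means of a group's 2 libraries. None of those shown passed the threshold; Hbb-y and Hba-x are high in eKO 2, where 1 barcode holds nearly all their UMIs.

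In the other direction, edgeR passed 0 genes as higher in Ets1 eKO, although 308 reached an unadjusted p under 0.05, and DESeq2 called Tagln alone. Tagln (ENSMUSG00000032085, chromosome 9, 45929619 to 45936058), which codes for an actin-binding protein of contractile cells, stood at 169, 218, 319 and 469 CPM, with both Ets1 eKO libraries above both controls. Its log2 fold change was 1.14 (SE 0.22, edgeR adjusted p 0.244 after Benjamini-Hochberg, 4.6e-06 to 0.395 in the alternatives), and it passed in 5 of the 18 alternatives, among them the fit without eKO 1 (1.40). Acta2, the smooth muscle actin, stood at 430, 301, 602 and 535 CPM, and Tpm1, a tropomyosin, at 734, 767, 1043 and 1062 CPM. Their log2 fold changes, 0.74 and 0.59, missed the threshold (edgeR, Benjamini-Hochberg adjusted p 0.55 and 0.566) and passed in 0 of the 18 alternatives. Tagln, Acta2 and Tpm1 come from different lists and were not tested as a set. All were higher in both Ets1 eKO libraries, while the mural genes Kcnj8 (58.8, 18.7, 18.8 and 9.58 CPM), Abcc9 (112, 48.2, 51.9 and 28.8 CPM) and Cspg4 (37.3, 28.9, 25.1 and 12.1 CPM) were not. The log2 fold changes of these 3 mural genes, -1.36, -0.89 and -0.69, moved with the libraries. Kcnj8 and Abcc9 passed without control 2 (-1.91 and -1.36), and these 2 and Cspg4 without eKO 1 (-1.98, -1.41 and -1.36), while without control 1 the values were -0.19, -0.07 and -0.43 and without eKO 2 they were -1.02, -0.56 and -0.32. Of the 10 genes listed for arterial wall and mural cells, 7 were tested outside the gate. At an unadjusted p under 0.05, 2 of them were above and 4 below, where 308 of all 10598 genes were above and 452 below. Their median was -0.69 (-1.36 to -0.03 with a library left out). The list summed to 956, 759, 1143 and 1160 CPM, with Acta2 as its most abundant gene, so the sum was higher in Ets1 eKO and the median below 0. Over all 18 alternatives that median ran from -1.36 to 0.36, so its direction was not steady. In fibroblasts without Kcnj8, Abcc9 and Rgs5, Acta2 stood at 338, 228, 488 and 520.0 CPM.

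The others with a small p and higher values were mixed in kind. Itga4, the integrin subunit that binds fibronectin and VCAM1, stood at 49.4, 63.9, 91.3 and 99.7 CPM, for a log2 fold change of 0.87, and Higd1a, a mitochondrial protein gene that responds to low oxygen, at 142, 139.8, 218 and 206 CPM, for 0.70. Dpep1, Akap6, Mtus2, Cenpf and the unnamed gene Gm38407 had fold changes of 1.02, 1.20, 1.15, 1.07 and 2.00. Hbb-y and Hba-x had fold changes of 5.05 and 5.81, which were 1.11 and 1.89 without eKO 2 and 1.27 and 2.09 among fibroblasts under 0.1% hemoglobin. Without eKO 1, Itga4 (0.94) and Cenpf (1.20) passed, without control 1 Cenpf (1.40) did, and without eKO 2 Dpep1 (1.12) and Akap6 (1.39). Hbb-y passed without each library and Hba-x without control 1, control 2 and eKO 1 (5.92, 5.74 and 6.82).

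By function, no list held a gene that passed in edgeR. The lists named 490 genes outside the gate, of which 424 were tested. At an unadjusted p under 0.05, 29 of these were higher and 38 lower, where 308 of all 10598 genes were higher and 452 lower. DESeq2 called 1 of the 424, Tagln. Kcnj8, Cspg4, Has2, Rspo3, Robo1, Wt1, Egln3, Pgk1, Klf6 and Btg2 are outside the rule that named genes and were chosen after their values were seen. The counts below are to be read against the 10.4% of all genes with both Ets1 eKO libraries above the controls, the 29.6% with both below, and the all-gene median of 0.01. Ranges in brackets after a median are those with a library left out.

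No gene of the matrix that these cells make passed the threshold. Of 12 fibrillar and associated collagens tested, 2 had both Ets1 eKO libraries above the controls and 2 both below, with a median log2 fold change of 0.17 (-0.01 to 0.34); Col3a1 stood at 2535, 2750, 2969 and 2198 CPM and Col1a2 at 1684, 1729, 2030 and 1654 CPM, and both overlapped. Of 26 matrix glycoproteins and proteoglycans, 3 were above and 8 below, with a median of -0.02 (-0.14 to 0.11). Gpc6, a glypican of the cell surface, stood at 1715, 1802, 1415 and 1178 CPM (fold change -0.33, -0.47 to -0.21 with a library left out), and the hyaluronan synthase Has2 at 37.3, 36.2, 26.0 and 13.4 CPM (fold change -0.75), past the threshold without eKO 1 (-1.34) and at -0.67, -0.79 and -0.40 without control 1, control 2 and eKO 2. Sparc, a collagen-binding glycoprotein, stood at 1924, 1779, 2049 and 2132 CPM. Of 15 basement membrane genes 2 were above and 7 below, with a median of -0.02 (-0.10 to 0.06), and of 23 matrix enzymes and inhibitors 2 were above and 6 below, with a median of 0.03 (-0.04 to 0.06). Each of these medians changed sign with 1 or more of the libraries left out. Col4a1 and Serpinh1, the collagen chaperone, overlapped between groups.

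Secreted factors and receptors had more genes below than above in both Ets1 eKO libraries. Of 35 growth factors tested, 4 had both Ets1 eKO libraries above and 16 both below, with 1 above and 6 below at an unadjusted p under 0.05 and a median of -0.18 (-0.28 to -0.09). Ptn, pleiotrophin, stood at 5233, 5067, 5729 and 5894 CPM, and Rspo3, an enhancer of Wnt signalling, at 17.6, 25.3, 8.51 and 3.19 CPM, for a fold change of -1.64. Of 29 receptors and integrins, 1 was above and 18 below, with a median of -0.20 (-0.23 to -0.12). The Slit receptors were among them. Robo2 (ENSMUSG00000052516, chromosome 16, 73891839 to 74411825) stood at 511, 679, 296 and 304 CPM, for a log2 fold change of -0.88 (SE 0.21), and Robo1 at 226, 287, 158 and 130.3 CPM, for -0.72. Both receptors were lower in both Ets1 eKO libraries, and both missed the threshold (edgeR, Benjamini-Hochberg adjusted p 0.37 and 0.455). Without control 1, Robo1 (-0.83) and Rspo3 (-1.86) passed, and without eKO 1 Rspo3 (-2.59) did, while without eKO 2 Rspo3 was at -1.20. Itgb1, the common integrin subunit, overlapped. These medians stayed below 0 in every alternative run, as did that of the transcription factors. Robo1, Robo2 and Nrg1 belong to the group of the longest genes, which had a median of -0.15 as given below, and no list was tested against genes of the same span.

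Of 22 fibroblast and epicardial transcription factors tested, 0 had both Ets1 eKO libraries above and 12 both below, with a median of -0.20 (-0.27 to -0.08) and no gene at an unadjusted p under 0.05. Nfia stood at 1182, 1521, 1112 and 982 CPM and Tbx20, a T-box factor of the heart, at 1027, 1187, 767 and 857 CPM (fold change -0.34). Wt1, at 137, 137, 129.8 and 124 CPM, was nearly level. Of 8 retinoic acid genes 2 were above and 3 below, with a median of -0.07 (-0.22 to 0.07). Of 11 Notch genes 0 were above and 4 below, with a median of -0.22 and with the target gene Hes1 overlapping at 177, 192, 201 and 180.2 CPM. That median is not steady, since it ran from -0.42 to 0.09 over the alternatives.

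No gene of metabolism or stress passed, and the lists differed in direction. Of 19 genes of glycolysis and hypoxia, 9 had both Ets1 eKO libraries above and 1 both below, with a median of 0.41 that lay between 0.26 and 0.45 over the alternatives. Gapdh stood at 798, 752, 853 and 1063 CPM, Ldha, lactate dehydrogenase, at 493, 454, 549.8 and 692 CPM, and Pgk1 at 253, 234, 293 and 399 CPM. Egln3, the oxygen sensor of the list, went the other way with 24.7, 35.6, 11.2 and 16.0 CPM (past the threshold at -1.26 without control 1 and -1.29 without eKO 2). eKO 2 was the highest for the 3 enzymes. Of 79 ribosomal protein genes tested, 16 were above and 0 below, with a median of 0.25 (0.15 to 0.36), and of the 13 mitochondrial genes 3 were above and 5 below, with a median of -0.08 (-0.13 to 0.02). mt-Co3 stood at 4186, 5122, 3339 and 3415 CPM. Of 20 immediate early genes, which respond to tissue handling, 0 were above and 8 below, with a median of -0.10 (-0.39 to 0.14) that was positive without control 1. Klf6 stood at 142, 159, 90.9 and 96.5 CPM and Btg2 at 296, 290.5, 222 and 158 CPM, whereas Fos and Jund overlapped. Of 12 heat shock genes 4 were above and 3 below, with a median of 0.22 (0.03 to 0.35), and of 19 imprinted genes 1 was above and 11 below, with a median of -0.10 (-0.20 to -0.03).

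Cycling genes were low by the gate, but those it did not name were read. Of 18 S phase genes 5 were above and 1 below, with a median of 0.15 (0.05 to 0.26), and Mcm3 stood at 69.0, 69.3, 79.7 and 86.9 CPM. Of 12 genes of G2 and mitosis tested, 3 were above and 0 below, with a median of 0.50 (0.14 to 1.06). Birc5 stood at 38.8, 22.3, 39.4 and 70.3 CPM, highest in eKO 2, past the threshold without control 1 (1.42) and without eKO 1 (1.26), and lower without control 2 (0.55) and eKO 2 (0.42). eKO 2 is the library with the least depth per cell. With every cell thinned to 3000 UMIs, the log2 fold change of Birc5 was 0.42, against 0.87 in the fit reported. The cells were thinned after the gate on Top2a and Mki67 had chosen them, so depth was not evened out for the gate itself. The part that depth plays in these genes was not tested.

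Lists of other cell types had few genes to test. Of 6 endothelial genes 0 were above and 3 below (median -0.29, -0.43 to -0.04), of 3 cushion genes 0 and 3 (median -1.30, -1.64 to -0.94), and of 11 cardiomyocyte genes 3 and 0 (median 0.49, 0.03 to 1.18). Of 6 erythroid genes 2 and 0 (median 3.72, -1.84 to 6.67) and of 6 sex-linked genes 0 and 2 (median -1.10, -6.75 to -0.28), and of the macrophage genes Pf4 alone was tested, at a fold change of 0.14. No epicardial or Schwann cell gene was tested outside the gate. The libraries' hemoglobin and sex are given above, and the part of RNA from other cells in the fibroblasts' own values was not tested.

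The lower and the higher genes differed in length. The span of a gene, from start to end in the annotation, was looked at after the values were seen. The tested genes were divided by span into 5 groups of 2119 or 2120 genes. From the shortest to the longest group, the median log2 fold change was 0.16, 0.08, 0.02, -0.04 and -0.15. The order was the same without each of the 4 libraries, with 0.08 to 0.28 in the shortest group and -0.23 to -0.08 in the longest, and with total count scaling, where the medians were 0.05, -0.02, -0.09, -0.14 and -0.26. At an unadjusted p under 0.05, 243 genes of the longest group were lower and 31 higher, against 38 and 139 of the shortest. With total count scaling, 436 of the longest group were lower and 19 higher, against 69 and 60 of the shortest. The excess of higher genes among the shortest was thus not kept under that scaling. Genes of the longest group gave 18.4%, 21.4%, 17.3% and 15.9% of the fibroblasts' UMIs, so the libraries differed even within a group. Ets1, Fli1, March1, Nhs, Fam110b, Eps8, Kif26b, Prr16, Clstn2, Robo1, Robo2 and Nrg1 belong to the longest group. So do Akap6, Mtus2 and Gm38407, which were higher in Ets1 eKO. Apoe and Tagln belong to the shortest group. Whether the share of unspliced RNA or RNA quality differed between libraries was not tested, since the counts do not separate intron from exon reads.

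The comparison with other classes asked which differences between genotypes belong to these cells. Each was tested as a term for class by genotype, with library in the model. Against cushion-type mesenchyme, 15 of 12433 genes (0.121%) passed in edgeR. Leaving out 1 library gave 98 genes without control 1, 93 without control 2, 49 without eKO 1 and 18 without eKO 2. Apoe differed by -1.53 (SE 0.20, edgeR, adjusted p 0.021 after Benjamini-Hochberg), with cushion-type mesenchyme at 925, 733, 868 and 922 CPM. Thus Apoe was lower in Ets1 eKO in the fibroblasts and overlapped in the cushion class. Tagln differed by 1.03 (SE 0.15, edgeR, Benjamini-Hochberg adjusted p 0.0294), with 395, 355, 326 and 449 CPM in the cushion class, and was chosen for this comparison after its values were seen. It was not among the 5 genes that passed with total count scaling.

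Among the 5 smallest p of that comparison were also matrix and channel genes. Mgp, the calcification inhibitor matrix Gla protein, stood at 243, 223, 186 and 179.5 CPM in the fibroblasts and at 1854, 1764, 2666 and 2199 CPM in the cushion class, a difference of -0.74 (SE 0.10). Mast4, a kinase gene, stood at 321, 216, 172 and 132 CPM and at 431, 355, 492 and 395 CPM, a difference of -0.94 (SE 0.13). Neither class overlapped for Mgp, which was lower in Ets1 eKO in the fibroblasts and higher in the cushion class. Abcc9 differed by -2.03 (SE 0.27), from 112, 48.2, 51.9 and 28.8 CPM in the fibroblasts, where the cells with mural genes carry it, against 7.60, 3.73, 14.2 and 10.0 CPM. Hba-x differed by 4.27 (SE 0.34), and by 4.14 without eKO 2. All these had an edgeR adjusted p (Benjamini-Hochberg) of 0.0227 or less, and each kept its sign in the 6 alternatives. Mgp missed the threshold without eKO 1, with a difference of -0.59 (edgeR, Benjamini-Hochberg adjusted p 0.0621), and the others passed in every alternative.

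Against epicardial cells, the class with the nearest origin, 2 of 11324 genes (0.0177%) passed in edgeR, with 78, 15, 20 and 21 without control 1, control 2, eKO 1 and eKO 2. Apoe was the one with the smaller p. In epicardial cells it stood at 313, 237, 317 and 327 CPM, higher in both Ets1 eKO libraries, and the fibroblasts' effect differed from theirs by -1.67 (SE 0.23, edgeR, adjusted p 0.00644 after Benjamini-Hochberg). Plcxd3, which codes for a phospholipase-like protein, stood at 5.49, 6.03, 12.5 and 10.9 CPM in the fibroblasts and at 44.2, 54.2, 11.1 and 13.9 CPM in epicardial cells, a difference of 3.02 (SE 0.46, edgeR, Benjamini-Hochberg adjusted p 0.0185). The values of Plcxd3 thus ran in opposite directions in the 2 classes without overlap in either. Nhs, Negr1 and Ctnna2 followed with differences of -1.37, -1.82 and -0.98 that did not pass (edgeR, Benjamini-Hochberg adjusted p 0.0523, 0.0523 and 0.105). Of the 6 alternatives, Nhs and Negr1 passed in 5 and Ctnna2 in 3. Nhs passed without control 1 (-1.56), control 2 (-1.20) and eKO 2 (-1.41) and missed without eKO 1 (-1.28). Negr1 passed without control 1 (-2.02), eKO 1 (-2.13) and eKO 2 (-1.61) and missed without control 2 (-1.45). Ctnna2 passed without control 1 (-0.96) and control 2 (-1.01) and missed without eKO 1 (-0.95) and eKO 2 (-0.97).

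Against the cycling cells of the same class, 5 of 11326 genes (0.0441%) passed in edgeR, and without control 2 there were 0 (498 at an unadjusted p under 0.05; DESeq2 was not run for this comparison), with 32, 16 and 12 without control 1, eKO 1 and eKO 2. Apoe led again. In cycling Tcf21-type fibroblasts it stood at 72.0, 63.1, 63.3 and 67.5 CPM, so that the lower Apoe in Ets1 eKO was found in the non-cycling cells and not in the cycling ones, and the difference was -1.38 (SE 0.17, edgeR, adjusted p 4.99e-05 after Benjamini-Hochberg). Over the 6 alternatives its edgeR adjusted p (Benjamini-Hochberg) ran from 7.88e-16 to 0.05, highest without control 2, where the difference was -1.14 and no gene was called.

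None of the other 4 genes of that comparison passed without control 2, where the differences were 1.45 for Il1rapl2, -0.16 for Malat1, -4.10 for Pcdh15 and -0.95 for Adamts19. Without eKO 1, Malat1 (-0.37) and Pcdh15 (-3.16) missed as well, and without eKO 2, Malat1 (-0.27) and Adamts19 (-1.07) did. Il1rapl2, a relative of the interleukin 1 receptor, stood at 38.8, 21.1, 39.4 and 26.2 CPM in non-cycling and 83.7, 59.5, 33.1 and 19.2 CPM in cycling cells, a difference of 1.58 (SE 0.25). Adamts19, a metalloprotease gene, stood at 57.2, 136, 64.0 and 33.9 CPM and 19.6, 27.5, 35.1 and 34.9 CPM, a difference of -1.37 (SE 0.27). In both genes the non-cycling groups overlapped, while the cycling groups did not. Malat1, a nuclear RNA, differed by -0.30 (SE 0.06), with 8652, 10644, 11426 and 7610 CPM in the non-cycling cells. Pcdh15 differed by -4.18 (SE 0.81), and control 2 held 41 of its UMIs in 5 fibroblasts, 26 of them in 1 cell.

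**Figure D5:**
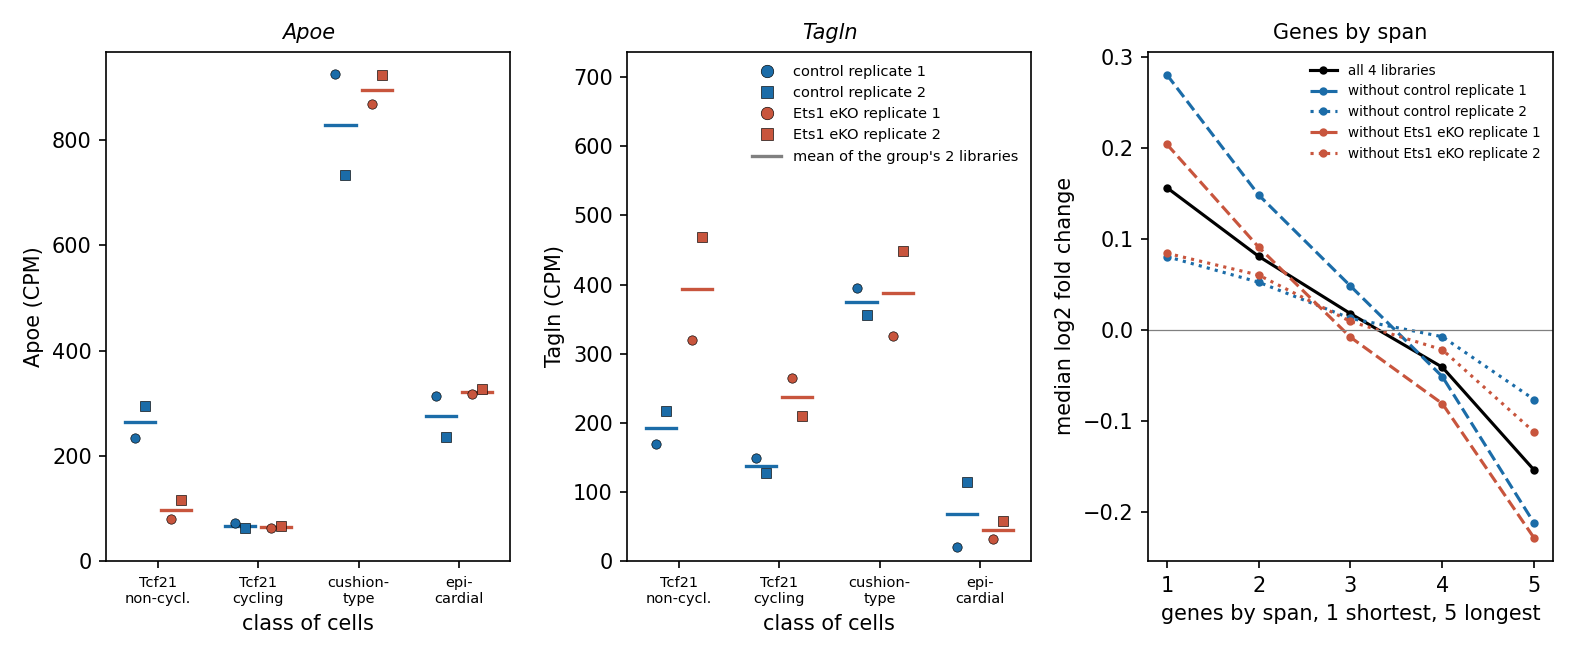
First 2 panels, CPM of Apoe and Tagln in 4 classes of cells, with points for libraries and bars for the means of a group's 2 libraries; last panel, median log2 fold change of Ets1 eKO over control in the non-cycling fibroblasts by gene span, for all libraries and without each. Apoe is lower in both Ets1 eKO libraries in non-cycling fibroblasts, overlaps in cycling fibroblasts and cushion-type mesenchyme and is higher in epicardial cells, and the medians go down from 0.16 in the shortest to -0.15 in the longest genes.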

How the data were processed

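Single-cell RNA of ventricles from E14.5 embryos was measured in 4 libraries of 3 pooled embryos each. The counts were deposited as UMI counts per barcode and gene, made by the authors with Cell Ranger 7.1.0 against mm10, with Seurat 4.3.0 for their own analysis. No depth or composition correction had been applied to the deposited counts. The cells and gene lists were chosen with earlier results of these data known. Python 3.11.15 selected barcodes and summed their UMIs per library and class. With edgeR 4.0.16 in R 4.3.3, sums were filtered with filterByExpr, scaled by trimmed means and tested by quasi-likelihood F tests of 2 against 2 libraries, with Benjamini-Hochberg adjustment at 0.05. SE is the log2 fold change over the square root of F. DESeq2 1.42.0 was run beside it. Class by genotype terms were tested with library in the model, and shares by exact permutation. Named genes were the gate genes, the study's genes, up to 10 genes per direction (largest changes past the threshold without overlap and at 10 CPM or more, then smallest p), list members past the threshold or else the 2 with the highest CPM, and the 5 smallest p of each class by genotype test; others named were chosen after their values were seen. Lists covered matrix, transcription factors, growth factors, receptors, retinoic acid, Notch, ETS factors, stress, metabolism, cell cycle, imprinting, sex, other cell types, ribosomal proteins and mitochondrial genes. Alternatives changed tool, scaling, count filter, replicate block, libraries, cell filter, gates, likely doublets, depth and sex. The fit with sex as a term summed female and male cells of control 2 and of eKO 1 separately, and parts of 1 library are not separate replicates. A further 4 were chosen after seeing the data. Gene coordinates are GRCm38. Genes of the gate carry no test. Some named genes are not reported here.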

Additional observations from a re-analysis of the deposited data

Results flagged for a closer look

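Each value here is the log2 effect of Ets1 eKO in non-cycling Tcf21-type fibroblasts minus that in another class, and each was singled out because a class by genotype test found the effects to differ. Against cushion-type mesenchyme the 5 genes with the smallest p differed by 4.27 for Hba-x, -2.03 for Abcc9, -1.53 for Apoe, -0.94 for Mast4 and -0.74 for Mgp. In Hba-x a single barcode held 310 of the 324 UMIs of eKO 2, and without eKO 2 the difference was 4.14. Against epicardial cells, Apoe differed by -1.67 and Plcxd3 by 3.02. Against cycling fibroblasts, Apoe differed by -1.38, Il1rapl2 by 1.58, Malat1 by -0.30, Pcdh15 by -4.18 and Adamts19 by -1.37. Apoe is thus in all 3 sets, but the 3 comparisons share the same fibroblast values and are not independent of each other. None of the causes was tested.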

How the results depend on the processing

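Of the alternatives, 14 were planned and 4 were chosen after seeing the data. The number of genes past the edgeR threshold, 1 in the fit reported, was 3 with DESeq2, 2 with total count scaling, 69 with no filter on low counts, 27 with the replicate block, 2 with cardiomyocyte genes under 0.2%, 2 without barcodes above the 95th percentile of UMIs, 2 thinned to 3000 UMIs, 3 with sex as a term and 21 to 89 with a library left out. Of those added, it was 0 in cells with a UMI of Tcf21 (624 at an unadjusted p under 0.05; DESeq2 was not run there), 4 without Kcnj8, Abcc9 and Rgs5, and 2 under 0.1% hemoglobin. Among the named genes outside the gate it was 1, and in the same order 3, 2, 24, 15, 2, 2, 2, 3, 7 to 19, 0, 4 and 2. With replicate numbers crossed in 1 group, the block called 17 genes, 11 of them named. Class by genotype counts were, for cushion-type mesenchyme (15), 5 with total count scaling, 152 with no filter and 18 to 98 with a library left out; for epicardial cells (2), 4, 42 and 15 to 78; for cycling cells (5), 17 with no filter and 0 to 32. Where 1 library is left alone in its group, it is assumed to vary like the other group. The share of fibroblasts among kept barcodes, -0.245 points, ran from -0.821 to 0.331 with a library left out and reversed without eKO 2. Slit2, -0.12, ran from -0.29 to 0.10 with a library left out and reversed without control 1 (0.10) and with sex as a term (0.078). The cause was not tested. Of the single-gene values under alternatives, 721 kept direction and side of the threshold and 106 passed it newly. Depth limits low genes most in eKO 2.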
